A study of Homo sapiens with 12 samples.

Results

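Integrins are the receptors through which cells hold on to the matrix around them, and laminins are the main adhesive proteins of the basement membrane under epithelia. The genes described here are protein-coding genes of the raw count table whose GENCODE symbols name an integrin alpha subunit, an integrin beta subunit, or a laminin alpha, beta or gamma chain. They number 37 among 19788 protein-coding genes in the table, comprising 18 integrin alpha, 8 integrin beta and 11 laminin genes. Enough counts for testing were present for 26 of the 37: 10 integrin alpha, 7 integrin beta and 9 laminin genes.

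Each integrin is a pair of one alpha and one beta subunit, and the pair decides which ligand is bound and which proteins assemble at the cytoplasmic side. A laminin is a cross-shaped trimer of one alpha, one beta and one gamma chain, and the chains give each trimer its receptors and its place in the tissue. In the kidney tubule, alpha3 and alpha6 integrins bind the laminins of the tubular basement membrane, and the αv integrins bind RGD-bearing matrix proteins and the latent form of TGFβ.

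RNA was sequenced from HK2, an immortalised line made from human proximal tubule cells, after stable transfer of an shRNA against FLCN, the tumour suppressor gene of Birt-Hogg-Dubé syndrome, or of a control shRNA. By the labels, cells were harvested either early, below 30 passages, or late, above 120 passages. The text of the study gives another limit for the late cells. This gave 4 groups of 3 libraries, namely nontarget and FLCN knockdown cells of the short term and nontarget and FLCN knockdown cells of the long term. The question was how gene expression differs when FLCN is silenced for a short or a long time. All cells grew in DMEM with 10% fetal bovine serum. The labels give the nontarget cells as wild type, although they carry the control shRNA. The knockdown lines were selected as clones, and the sources do not say from which clone a library was made, so the effect of the shRNA and a difference between clones cannot be told apart. The same holds for culture time and any drift of a clone during it.

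Values are in CPM, counts brought to a common library size with the TMM factor of each library, and groups are given as mean ± SD of 3 libraries. Totals ran from 6284233 to 7279890 counts in short-term nontarget and from 5825779 to 8151168 in short-term knockdown libraries. They ran from 6262665 to 7592062 in long-term nontarget libraries and from 6031734 to 8991051 in long-term knockdown libraries. A gene was called at an edgeR adjusted p below 0.05. The labels number the libraries as biological replicates without saying what was repeated, so the p-values measure the spread between these libraries.

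FLCN was read first as a check of the labels. It stood at 12.7, 16.7 and 16.5 CPM in short-term nontarget, 5.95, 6.58 and 5.66 in short-term knockdown, 9.92, 11.9 and 12.2 in long-term nontarget, and 6.70, 6.31 and 7.97 in long-term knockdown libraries. Every knockdown library was below every nontarget library. The log2 fold change was −1.33 ± 0.18 (SE, edgeR adjusted p = 0.000112) in the short term, against −0.70 ± 0.18 (edgeR adjusted p = 0.00611) in the long term.

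The markers of a differentiated proximal tubule were mostly missing. Of 11 such genes, the endocytic receptor LRP2, the anion transporters SLC22A6 and SLC22A8 and the transcription factor HNF4A had 0 counts in the 12 libraries together, which allows up to 0.0357 CPM. Only 2 of the 11 were above 1 CPM on average, and the most abundant, the enzyme GGT1, averaged 51.0 CPM. The summed level of the 11 was 53.7 ± 6.505 CPM in short-term nontarget and 73.7 ± 5.56 in short-term knockdown libraries, against 46.9 ± 9.70 in long-term nontarget libraries and 81.1 ± 13.1 in long-term knockdown libraries, higher in both knockdown groups. General kidney epithelial genes were present, with 8 of 10 above 1 CPM and the keratin KRT8 at 1889 CPM on average. Their sum was 2841 ± 113 CPM in short-term nontarget and 3566 ± 439 in short-term knockdown libraries, against 3698 ± 256 in long-term nontarget libraries and 4514 ± 297 in long-term knockdown libraries. The cadherin CDH6 alone averaged 243.6 CPM in long-term nontarget libraries and 1618 ± 180.2 in long-term knockdown libraries. Without it the sum was 3454 ± 211 CPM in long-term nontarget libraries and 2896 ± 476 in long-term knockdown libraries, and the 7 other genes above 1 CPM each had a lower mean in the latter. The part of either marker list in the results that follow was not tested.

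Markers of other cells were low beside the kidney epithelial list. Of 6 fibroblast genes 3 were above 1 CPM, COL1A1 leading at 21.8, and their sum was 49.8, 54.0, 27.1 and 31.2 CPM in short-term nontarget, short-term knockdown, long-term nontarget and long-term knockdown libraries. That sum was below the summed proximal tubule markers in each group, but close to them in short-term nontarget libraries. Within the fibroblast list LUM averaged 23.5, 23.1, 0.960 and 12.1 CPM in the same order of groups, and PDGFRB 3.99, 2.19, 7.41 and 0.658. Of 4 endothelial genes KDR was at 0 and none averaged above 1 CPM over the 12 libraries. VWF averaged 1.31 CPM in long-term nontarget libraries. The endothelial sum was 0.848 CPM in short-term nontarget and 0.699 in short-term knockdown libraries, against 1.53 in long-term nontarget libraries and 0.0565 in long-term knockdown libraries. Of 5 genes of other nephron segments UMOD, SLC12A1 and NPHS1 were at 0 and none averaged above 1 CPM. Among 4 leukocyte genes PTPRC and CD3E were at 0, and the list's most abundant gene was ITGB2 itself, at 17.8 CPM. In bulk RNA, fewer cells of a type and less RNA per cell cannot be told apart.

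In each group the library numbered 3 stood apart from the other pair. The chi-square per degree of freedom between libraries 1 and 2 was 2.15 to 5.28, and between library 3 and either of them 4.35 to 13. Counts of calls are therefore also given without the 4 libraries numbered 3, a setting chosen after seeing the data.

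In the short-term knockdown comparison 6 members were called, each an integrin subunit. ITGA6, ITGAV, ITGB2, ITGB4 and ITGB6 were higher in knockdown libraries, and ITGB3, the beta subunit of the vitronectin receptor, was lower. These 6 of 26 tested members make 23.1%, beside 10.3% of the 13959 genes tested. The 5 higher members stand beside 5.62% of all genes called higher, and the 1 lower beside 4.71% called lower. ITGB3 was the 1 member that also changed 2-fold or more, beside 3.19% of all genes. The median log2 fold change of the members was −0.07, and that of all genes −0.00. Of the 9 laminin genes edgeR called 0 and DESeq2 called 0, although 4 had an unadjusted edgeR p below 0.05.

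Of the 6 short-term calls, 3 were lost in some fits with 1 library left out, those of ITGAV, ITGB2 and ITGB4. With all 12 libraries and a replicate block each was called (edgeR adjusted p = 0.00542, 0.00132 and 0.00331). ITGAV lost its call in 4 of 12 fits with 1 library left out, without short-term nontarget 1 (edgeR adjusted p = 0.147) or 2 (0.161) or short-term knockdown 1 (0.112) or 2 (0.0860). ITGB2 lost it without short-term knockdown 2 (edgeR adjusted p = 0.0504). Without the 4 libraries numbered 3, 12 of the 26 were called, including these 6, beside 14.2% of all genes. The 6 added were ITGA3, ITGB5 and the laminin genes LAMA3, LAMA5, LAMB2 and LAMB3.

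In the long-term knockdown 17 members were called. The genes for alpha1, alpha2, alpha4, alpha6, alpha7, beta3, beta5 and beta8 integrins and for the laminin chains alpha1, beta1, beta3 and gamma1 fell, 12 in all. ITGAE, ITGB2, ITGB4, ITGB6 and the laminin chain gene LAMA3 rose. The 17 called members are 65.4% of the 26 tested, beside 29.5% of all genes, with 5 higher beside 13.7% and 12 lower beside 15.8%. A change of 2-fold or more was called for 9 members, beside 9.92% of all genes, and the median log2 fold change was −0.43 against 0.00 for all genes. No direction of a called member changed with another scaling. Without the libraries numbered 3, 18 were called, including these 17, beside 33.8% of all genes.

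Both knockdown comparisons, which use different nontarget libraries, called 5 members: ITGA6, with opposite signs, and ITGB2, ITGB3, ITGB4 and ITGB6, each with the same sign. The share of all genes called in both is not given here, so these 5 are named as a list only. The main fit used all 12 libraries, the filter filterByExpr and no replicate block. In it edgeR called ITGA3, ITGA5, ITGAX, ITGB1, LAMA2, LAMA5, LAMB2 and LAMC3 in no comparison. Without the libraries numbered 3, ITGA3, ITGA5, ITGB1, LAMA5 and LAMB2 were each called in at least 1. The same held for each of them with all 12 libraries and a replicate block.

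**Figure D1:**
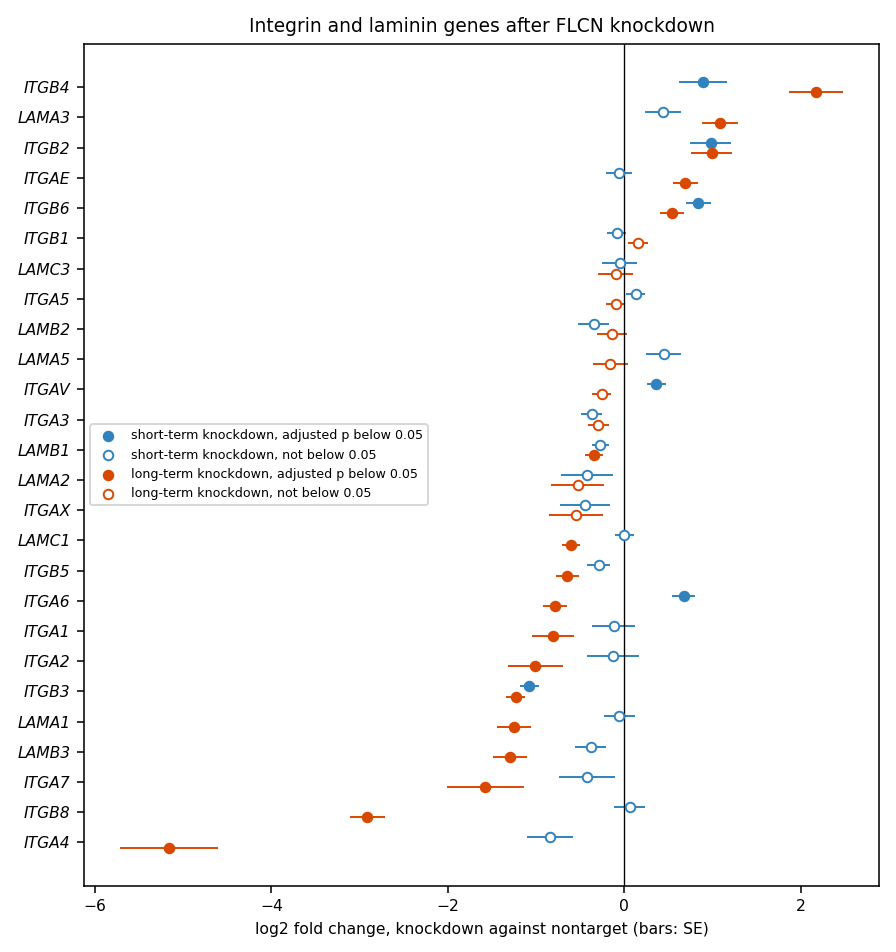
The log2 fold change of each of the 26 tested members (knockdown against nontarget, n = 3 per group, bars SE) in short-term (blue) and long-term (orange) knockdown, filled where the edgeR adjusted p was below 0.05. Most long-term points lie left of 0, and ITGB4 and LAMA3 lie furthest to the right.

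Among the receptors for laminin, alpha6 moved in opposite directions at the 2 times. ITGA6 (ENSG00000091409.14, chr2:172427354-172506282 in GRCh38, plus strand) encodes the alpha subunit that pairs with beta4 in hemidesmosomes and with beta1 elsewhere. It read 20.6, 20.2 and 24.04 CPM in short-term nontarget, 38.3, 32.2 and 32.9 in short-term knockdown, 25.5, 23.1 and 22.8 in long-term nontarget, and 15.0, 12.9 and 13.4 in long-term knockdown libraries. The short-term knockdown libraries were the highest of the 12 and the long-term knockdown libraries the lowest, with no overlap with the nontarget libraries of either time. Its log2 fold change was 0.68 ± 0.13 (edgeR adjusted p = 0.00243) in the short term, against −0.78 ± 0.14 (edgeR adjusted p = 0.000296) in the long term. The difference between them, tested as the interaction of knockdown and culture time, was −1.46 ± 0.19 (edgeR adjusted p = 3.54e-05).

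ITGB4 (ENSG00000132470.13, chr17:75721328-75757818, plus strand) encodes the beta subunit that links laminin to keratin filaments through plectin. It read 4.37, 3.04 and 5.97 CPM in short-term nontarget, 8.10, 5.99 and 10.97 in short-term knockdown, 1.61, 1.86 and 2.33 in long-term nontarget, and 9.36, 6.60 and 10.5 in long-term knockdown libraries. Both knockdown groups were above their nontarget group in every library. In the long term the log2 fold change was 2.17 ± 0.31 (edgeR adjusted p = 3.64e-05). In the short term it was 0.89 ± 0.28 (edgeR adjusted p = 0.0473), with a DESeq2 adjusted p of 0.0602. That call was lost in 7 of 12 fits with 1 library left out. The edgeR adjusted p was 0.138 without short-term nontarget 1, 0.208 without short-term nontarget 2, 0.103 without short-term knockdown 1 and 0.175 without short-term knockdown 3. It was 0.0534 without long-term nontarget 1, 0.0644 without long-term nontarget 2 and 0.0560 without long-term knockdown 1. The interaction, 1.28 ± 0.42, was not called (edgeR adjusted p = 0.0535), but it was without a filter on low counts.

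The balance of the pair differed between the long-term groups, and the short-term groups overlapped. Per kilobase of exon, the ratio of ITGB4 to ITGA6 mRNA was 0.197 ± 0.0479 in short-term nontarget and 0.235 ± 0.0760 in short-term knockdown libraries, against 0.0792 ± 0.0189 in long-term nontarget libraries and 0.618 ± 0.133 in long-term knockdown libraries. The long-term knockdown libraries had the highest ratios and the long-term nontarget libraries the lowest, without overlap with any other group.

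The other laminin receptor alpha subunits, ITGA3 and ITGA7, each had a lower mean in knockdown than in nontarget libraries at both times. Per kilobase of exon, ITGA3 had the highest level of the laminin receptor alpha subunits in every group. ITGA3 averaged 818 ± 83.1, 634 ± 43.8, 661 ± 70.7 and 539 ± 82.1 CPM in short-term nontarget, short-term knockdown, long-term nontarget and long-term knockdown libraries. It was called in neither knockdown comparison (edgeR adjusted p = 0.0573 and 0.0709), while DESeq2 gave 0.0386 in the short term. Without the libraries numbered 3 it was called in both (edgeR adjusted p = 0.000167 and 0.00220), and without a filter on low counts as well. A replicate block also gave a call in both (edgeR adjusted p = 0.0112 and 0.0217). ITGA7, the laminin receptor alpha subunit known from muscle, read 5.47, 5.01 and 4.56 CPM in short-term nontarget, 4.05, 4.53 and 2.48 in short-term knockdown, 1.74, 2.17 and 4.14 in long-term nontarget, and 0.462, 1.17 and 1.19 in long-term knockdown libraries. It was lowest in long-term knockdown, below every library of every other group, with a log2 fold change of −1.57 ± 0.43 in the long term (edgeR adjusted p = 0.0105). That call was lost without long-term nontarget 3 (edgeR adjusted p = 0.0848) or long-term knockdown 1 (0.0719).

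ITGB1, the beta subunit shared by most matrix receptors, read 1091, 1034 and 1191 CPM in short-term nontarget, 1057, 1164 and 905 in short-term knockdown, 1203, 1152 and 1046 in long-term nontarget, and 1337, 1341 and 1115 in long-term knockdown libraries. The groups overlapped in both knockdown comparisons, and no comparison of the main fit called it (edgeR adjusted p = 0.0715 or higher). Over culture time in knockdown cells it was called with a replicate block (edgeR adjusted p = 0.0176) and without the libraries numbered 3 (0.00906). On the scale of CPM per kilobase of exon it had the highest level of all members in every group, 184, 173, 189 and 210. ITGAV and ITGA3 followed on that scale, with ITGAV at 65.6 ± 6.87 and ITGA3 at 83.5 ± 8.48 in short-term nontarget libraries and at 59.5 ± 5.05 and 54.9 ± 8.37 in long-term knockdown libraries, where their spreads overlapped.

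**Figure D2:**
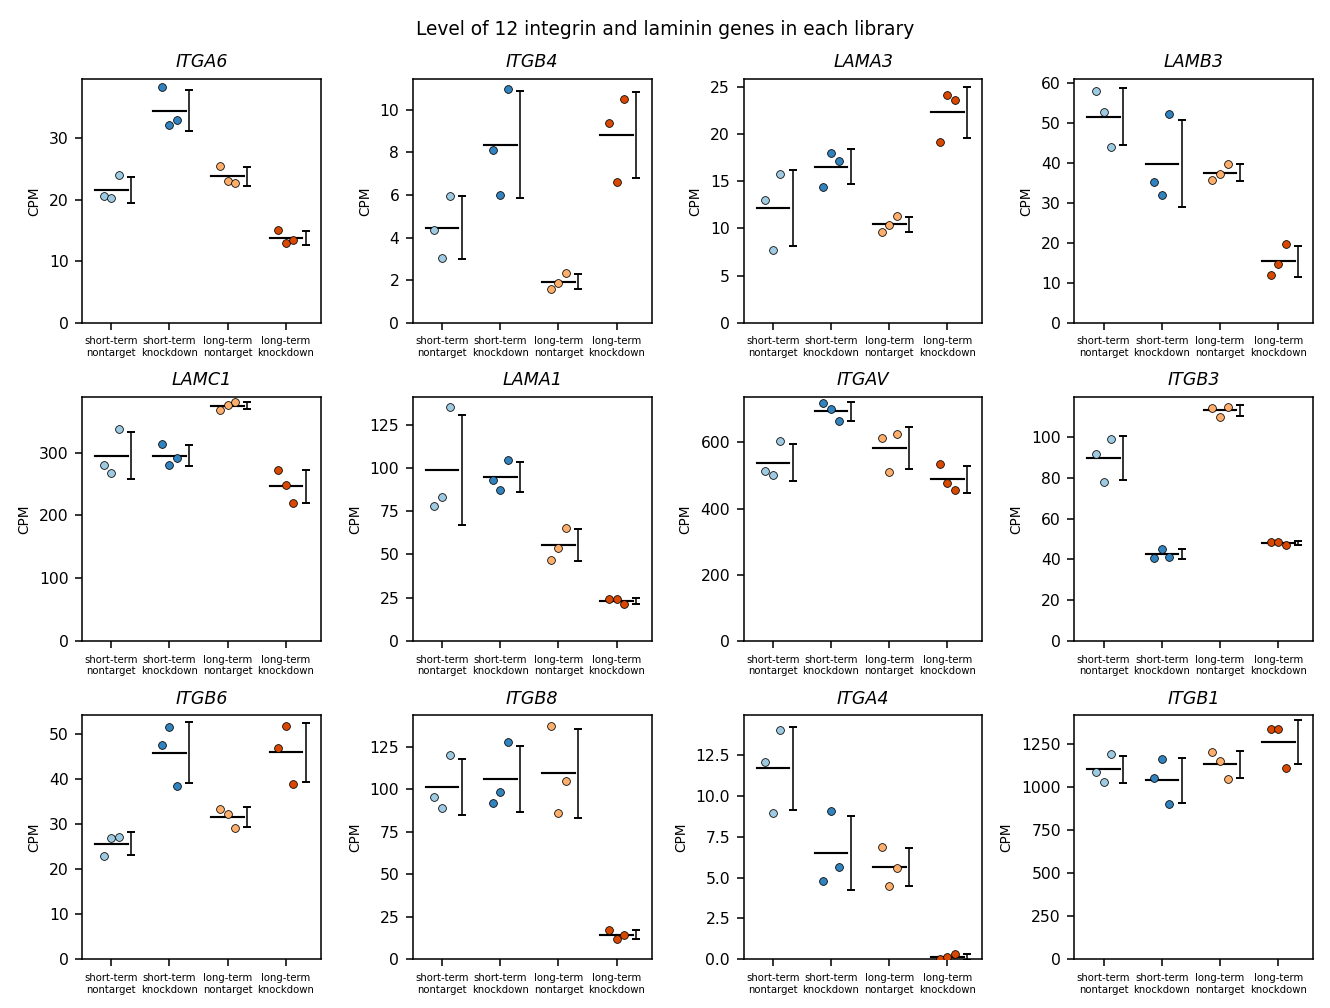
CPM of 12 integrin and laminin genes in each of the 12 libraries, by group, with the mean as a line and the SD as a bar (n = 3). ITGA6 is highest in short-term and lowest in long-term knockdown libraries, and ITGB8 is low in long-term knockdown libraries alone.

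The alpha3 and beta3 chains are parts of a laminin that anchors epithelia through α6β4, and their genes moved in opposite directions in long-term knockdown cells. LAMA3 (ENSG00000053747.15) encodes the alpha chain. It read 12.99, 7.75 and 15.7 CPM in short-term nontarget, 14.4, 17.99 and 17.2 in short-term knockdown, 9.65, 10.4 and 11.3 in long-term nontarget, and 19.2, 24.1 and 23.6 in long-term knockdown libraries. The long-term knockdown libraries were the highest, and in the short term the groups overlapped. The long-term log2 fold change was 1.09 ± 0.20 (edgeR adjusted p = 0.000471).

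LAMB3 (ENSG00000196878.14, chr1:209614870-209652466, minus strand), the beta chain gene of that trimer, read 58.0, 52.9 and 44.0 CPM in short-term nontarget, 35.3, 32.0 and 52.2 in short-term knockdown, 35.6, 37.3 and 39.7 in long-term nontarget, and 12.02, 14.7 and 19.7 in long-term knockdown libraries. Long-term knockdown libraries were below all others, and the third short-term knockdown library lay within the nontarget range. The long-term log2 fold change was −1.30 ± 0.19 (edgeR adjusted p = 6.57e-05). The short-term change of −0.38 ± 0.18 was not called (edgeR adjusted p = 0.21), but its edgeR adjusted p was 0.000201 without the libraries numbered 3.

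Per kilobase of exon, the ratio of LAMA3 to LAMB3 mRNA was 0.0775 ± 0.0340 in short-term nontarget and 0.138 ± 0.0378 in short-term knockdown libraries, against 0.0886 ± 0.00204 in long-term nontarget libraries and 0.472 ± 0.0777 in long-term knockdown libraries. The long-term knockdown libraries lay above all others. Per kilobase of exon, of the longest transcript or of the longest coding sequence, the alpha chain mRNA was below the beta chain mRNA in every group. Which LAMA3 transcripts the reads came from was not determined. Shorter ones would raise its level per kilobase and these ratios, so the order of the chains is not settled.

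**Figure D3:**
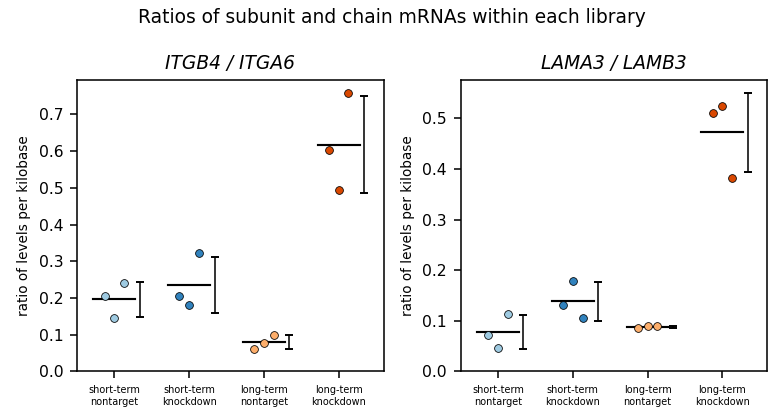
Ratios of mRNA levels per kilobase of exon within each library (points), with the group mean as a line and the SD as a bar (n = 3). ITGB4 to ITGA6 and LAMA3 to LAMB3 are highest in the long-term knockdown libraries, at 0.618 and 0.472 on average.

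Upstream sequences were searched for every member that had one at hand, whether or not the gene was called. RefSeq windows of 250 bases before the transcript start (GRCh38.p14) were at hand for 26 of the 37 members, 33 windows in all. None was at hand for ITGA3, ITGA7, ITGA9, ITGAD, ITGAL, ITGAX, ITGB2, ITGB3, ITGB4, LAMA1 and LAMC3, so nothing is known here of their motifs. A pair of motifs was sought on both strands: CACGTG, the palindromic E-box that the TFE3 and MYC families can bind, and TGACTCA, reading TGAGTCA on the other strand, the AP-1 motif. CACGTG was found in 6.34% of the 35116 windows of all genes and, among the members, in 1 of those of ITGA6. TGACTCA was found in 4.2% of all windows and, among the members, in LAMA3 and in 1 of those of LAMB3. The LAMA3 window holds it at −125 and −69 from the start, in a stretch annotated as exon, which is not printed. This window lies within the annotated gene, in a part that 3 of its 15 annotated transcripts span. Shown are the ITGA6 window (chr2:172427086-172427335, plus strand) with CACGTG at −101, and the LAMB3 stretch free of annotated exons (chr1:209651395-209651624, minus strand) with TGACTCA at −67, motifs in capitals.
ITGA6: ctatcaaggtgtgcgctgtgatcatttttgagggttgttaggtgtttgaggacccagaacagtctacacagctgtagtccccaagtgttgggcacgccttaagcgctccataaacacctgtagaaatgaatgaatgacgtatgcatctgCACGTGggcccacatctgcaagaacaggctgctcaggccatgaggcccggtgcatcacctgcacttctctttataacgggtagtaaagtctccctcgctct
LAMB3: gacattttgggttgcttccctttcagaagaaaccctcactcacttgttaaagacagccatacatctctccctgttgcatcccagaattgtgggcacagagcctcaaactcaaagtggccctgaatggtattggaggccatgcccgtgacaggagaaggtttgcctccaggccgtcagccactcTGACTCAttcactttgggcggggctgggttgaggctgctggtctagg
A match is a description of these letters, and binding was not measured. LAMB3 has further windows without the motif, and the printed stretch is spanned by 2 of its 5 annotated transcripts.

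Of the other laminin alpha chains, LAMA1 (ENSG00000101680.14, chr18:6941744-7117814, minus strand), the chain of embryonic and tubular basement membranes, fell with culture time and with long-term knockdown. It read 77.9, 82.9 and 135 CPM in short-term nontarget, 93.0, 87.3 and 104 in short-term knockdown, 47.0, 53.6 and 65.3 in long-term nontarget, and 24.3, 24.2 and 21.2 in long-term knockdown libraries. The short-term groups overlapped, the long-term nontarget libraries were below both, and the long-term knockdown libraries were the lowest. The long-term knockdown log2 fold change was −1.25 ± 0.19 (edgeR adjusted p = 9.48e-05), and the interaction −1.19 ± 0.26 (edgeR adjusted p = 0.00444). Its exons overlap genes on the opposite strand over 11.1% of their length.

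LAMA5, the widespread adult epithelial chain, averaged 94.8 ± 17.2, 129 ± 24.8, 149 ± 42.1 and 134 ± 24.6 CPM in the 4 groups in the same order. The main fit did not call it. It was called in the short-term knockdown, over culture time in nontarget cells and by the interaction in other settings. These were no filter on low counts, a replicate block, and leaving out the libraries numbered 3. LAMA2, the muscle chain, stayed between 2.49 and 5.92 CPM in every library. As shares of the summed alpha chain mRNA per kilobase of exon, LAMA1 went from 43.5% ± 4.11 in short-term nontarget to 36.4% ± 2.10, 23.4% ± 1.86 and 11.8% ± 2.24 in short-term knockdown, long-term nontarget and long-term knockdown libraries. LAMA5 made up 47.3% ± 3.90, 54.6% ± 2.58, 69.0% ± 2.54 and 73.9% ± 3.96 of that sum. In short-term nontarget libraries the order of LAMA1 and LAMA5 depended on the length used. By the longest transcript they held 48.4% and 43.1%, and by coding length 50.4% and 41.2%. LAMA3 made up 5.90% ± 1.80 and 12.1% ± 2.03 of it in the first and the last group.

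Among the beta and gamma chains, LAMC1, the gamma chain of most trimers, read 279.7, 267 and 337 CPM in short-term nontarget, 313, 281 and 291 in short-term knockdown, 368, 375 and 379.7 in long-term nontarget, and 272, 248 and 219 in long-term knockdown libraries. The short-term groups overlapped, and in the long term every knockdown library was below every nontarget library. The log2 fold change was −0.60 ± 0.11 in the long term (edgeR adjusted p = 0.000288), and the interaction −0.60 ± 0.15 (edgeR adjusted p = 0.0102). LAMB1, its usual partner, changed by −0.34 ± 0.10 in the long term (edgeR adjusted p = 0.0142), a call lost without long-term knockdown 3 (edgeR adjusted p = 0.055). LAMB2 and LAMC3, chains known from the glomerular basement membrane and from brain and skin vessels, averaged 77.6 to 109 CPM in every group. They were called in no comparison of the main fit. LAMB2 was called in the short-term knockdown with a replicate block and also without the libraries numbered 3.

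The αv integrins bind RGD sites, and αvβ6 and αvβ8 release active TGFβ from its latent complex. ITGAV, their alpha subunit, read 512, 500.1 and 603 CPM in short-term nontarget, 719, 699.7 and 663 in short-term knockdown, 613, 509.9 and 624 in long-term nontarget, and 535, 476 and 455 in long-term knockdown libraries. Short-term knockdown libraries were the highest of all 12, while the long-term groups overlapped. Its log2 fold change was 0.37 ± 0.11 in the short term (edgeR adjusted p = 0.0344) and −0.25 ± 0.11 in the long term (edgeR adjusted p = 0.082). With a replicate block the long-term change was called (edgeR adjusted p = 0.0291). The short-term call was lost without short-term nontarget 1 or 2 or short-term knockdown 1 or 2 (edgeR adjusted p = 0.147, 0.161, 0.112 and 0.0860). The interaction was −0.62 ± 0.15 (edgeR adjusted p = 0.00909).

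ITGB3 (ENSG00000259207.7, chr17:47253846-47311816, plus strand) read 91.6, 77.9 and 99.1 CPM in short-term nontarget, 40.7, 45.3 and 41.4 in short-term knockdown, 114, 110.0 and 115 in long-term nontarget, and 48.8, 48.6 and 47.0 in long-term knockdown libraries. Every knockdown library was below 50 CPM and every nontarget library above 75. The log2 fold change was −1.07 ± 0.11 in the short term (edgeR adjusted p = 4.9e-06) and −1.23 ± 0.10 in the long term (edgeR adjusted p = 1.29e-07), and the interaction was not called (−0.16 ± 0.15, edgeR adjusted p = 0.555). Its exons are shared over 51.6% of their length with another annotated gene of the same strand, AC068234.1, so reads there could have been counted for either or for neither.

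ITGB6, an epithelial beta subunit, read 22.8, 27.0 and 27.2 CPM in short-term nontarget, 47.6, 51.6 and 38.4 in short-term knockdown, 33.4, 32.2 and 29.2 in long-term nontarget, and 46.9, 51.8 and 39.0 in long-term knockdown libraries. It was higher in every knockdown library than in every nontarget library. Its log2 fold change was 0.84 ± 0.14 (edgeR adjusted p = 0.000762) in the short term, against 0.54 ± 0.14 (edgeR adjusted p = 0.0062) in the long term. A gene of the same strand, AC092153.1, covers 20.6% of its exons.

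ITGB8 (ENSG00000105855.9, chr7:20330702-20415754, plus strand), which holds latent TGFβ at the cell surface, read 95.4, 89.0 and 119.9 CPM in short-term nontarget, 91.6, 98.4 and 128 in short-term knockdown, 137, 85.9 and 105 in long-term nontarget, and 17.1, 11.7 and 14.4 in long-term knockdown libraries. The first 3 groups overlapped, and the long-term knockdown libraries were far below them. The log2 fold change was 0.06 ± 0.17 in the short term (edgeR adjusted p = 0.887) and −2.91 ± 0.20 in the long term (edgeR adjusted p = 1.83e-08), a 7.53-fold lower level. The interaction was −2.97 ± 0.26 (edgeR adjusted p = 9.96e-07).

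ITGB5, another vitronectin receptor subunit, read 163, 171 and 149 CPM in short-term nontarget, 126, 139.9 and 130.1 in short-term knockdown, 152, 200.1 and 201 in long-term nontarget, and 109, 103 and 143 in long-term knockdown libraries. Knockdown libraries were below the nontarget libraries of their time without overlap. The change was called in the long term (log2 −0.64 ± 0.13, edgeR adjusted p = 0.00109) and not in the short term (−0.29 ± 0.13, edgeR adjusted p = 0.195), and the interaction was not called (edgeR adjusted p = 0.231).

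Summed per kilobase of exon, the 4 beta subunits that pair with αv alone or mainly came to 57.5 ± 1.74 CPM per kilobase in short-term nontarget and 46.9 ± 2.33 in short-term knockdown libraries, against 68.3 ± 2.36 in long-term nontarget libraries and 40.02 ± 1.82 in long-term knockdown libraries. Of that sum ITGB3 held 35.4%, 20.6%, 37.7% and 27.4%, and ITGB6 held 9.53%, 20.8%, 9.90% and 24.6%, in the same order. ITGB5 held between 41.8% and 45.6% in every group. ITGB8 held 11.6%, 14.9% and 10.6% in the first 3 groups and 2.38% in long-term knockdown cells. These shares depend on the length used, most of all for ITGB8, which by coding length held 27.4%, 33.1%, 25.5% and 6.56%. They also divide by all exon bases, although 51.6% of those of ITGB3 and 20.6% of those of ITGB6 are shared with another gene. If reads there were not counted, the levels of ITGB3 and ITGB6 are too low, so their order beside ITGB5 is not settled.

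**Figure D4:**
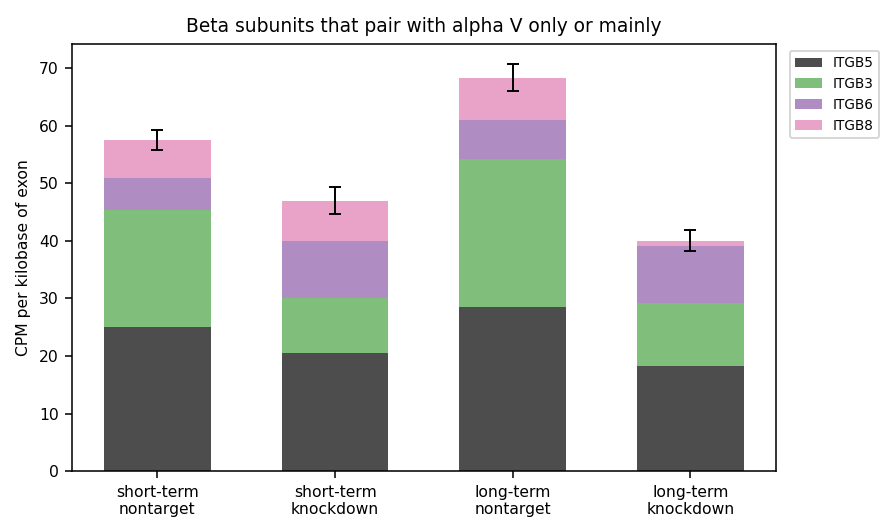
CPM per kilobase of exon of ITGB5, ITGB3, ITGB6 and ITGB8 stacked for each group (means of 3 libraries, bar SD of the sum). The sum is 40.02 in long-term knockdown cells, where ITGB8 is a thin layer, and ITGB6 is thicker in both knockdown groups.

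ITGA5, the fibronectin receptor alpha subunit that pairs with beta1, was among the steadier members, with group means of 176 to 213 CPM. The main fit called it in no comparison. Over culture time in knockdown cells it was called with a replicate block (edgeR adjusted p = 0.0193) and without the libraries numbered 3 (0.0277). It was also called there at a mean of at least 10 CPM. ITGA4 (ENSG00000115232.13, chr2:181457202-181536187, plus strand), the subunit that binds VCAM1 and fibronectin, was almost lost. It read 12.03, 8.96 and 13.98 CPM in short-term nontarget, 4.81, 9.07 and 5.66 in short-term knockdown, 6.83, 4.49 and 5.56 in long-term nontarget, and 0, 0.147 and 0.339 in long-term knockdown libraries. The last group was below all others, while the short-term groups overlapped by 1 library each.

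The long-term knockdown libraries held 3 counts of ITGA4 together and the long-term nontarget libraries 123. The ratio of nontarget to knockdown was 42.1, with a 95% interval of 14.1 to 207 that covers counting error only. The call (edgeR adjusted p = 1.83e-06) held in every fit with 1 library left out. In the short term the log2 fold change was −0.84 ± 0.26 (edgeR adjusted p = 0.0502). The interaction was called (edgeR adjusted p = 0.000263).

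The collagen receptors ITGA1 and ITGA2, neighbours on chromosome 5 with 30.1 kb between them, were modestly lower in long-term knockdown cells. ITGA2 read 4.92, 3.49 and 3.46 CPM in short-term nontarget, 4.30, 3.51 and 3.01 in short-term knockdown, 3.62, 6.81 and 3.36 in long-term nontarget, and 2.20, 2.20 and 2.37 in long-term knockdown libraries. Long-term knockdown libraries were the lowest, and the second long-term nontarget library was the highest of all. Its log2 fold change was −1.01 ± 0.31 (edgeR adjusted p = 0.0197), and the call was lost without long-term nontarget 2 (edgeR adjusted p = 0.136), long-term knockdown 1 (0.0623) or long-term knockdown 2 (0.0526). ITGA1 averaged 23.0 ± 3.62 CPM in long-term nontarget libraries and 13.1 ± 2.75 in long-term knockdown libraries. This log2 fold change of −0.81 ± 0.24 (edgeR adjusted p = 0.0154) was no longer called without long-term nontarget 1 (edgeR adjusted p = 0.0703).

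Some genes named for leukocyte integrins were present. ITGB2, the common beta subunit of leukocyte integrins, averaged 13.5 ± 0.263 CPM in short-term nontarget and 26.7 ± 4.79 in short-term knockdown libraries, against 10.4 ± 2.78 in long-term nontarget libraries and 20.7 ± 7.63 in long-term knockdown libraries. Its log2 fold change was 0.98 ± 0.23 (edgeR adjusted p = 0.00971) and 0.99 ± 0.24 (edgeR adjusted p = 0.0041) in the short and the long term. Its usual alpha partners ITGAL and ITGAM had 0 and 3 counts over the 12 libraries, and ITGAX averaged 2.43 to 4.58 CPM. ITGAE, the alpha subunit of the E-cadherin receptor of intraepithelial lymphocytes, averaged 21.0 to 21.8 CPM in the first 3 groups and 35.2 ± 5.10 in long-term knockdown libraries (log2 0.69 ± 0.14, edgeR adjusted p = 0.00115). Its partner ITGB7 had 2 counts in all. PTPRC, a gene of all nucleated blood cells, was at 0 in the same libraries.

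Culture time in nontarget cells asks what prolonged growth goes with when FLCN is not targeted, and it shares its nontarget libraries with the knockdown comparisons. It called 3 members, ITGA4, ITGB4 and LAMA1, each lower. They are 11.5% of those tested, beside 7.55% of all genes, 3.17% called higher and 4.38% called lower. LAMA1 changed by −0.83 ± 0.18 on the log2 scale (edgeR adjusted p = 0.00704). ITGA4 changed by −1.04 ± 0.26 (edgeR adjusted p = 0.0206), a call lost in 4 fits, without short-term nontarget 1 (edgeR adjusted p = 0.0810) or 3 (0.102) or long-term nontarget 2 (0.0949) or 3 (0.0588). ITGB4 changed by −1.19 ± 0.34 (edgeR adjusted p = 0.038), and its call was lost without all libraries numbered 3 (0.0623). It was also lost in 5 fits with 1 library left out, without short-term nontarget 1 (edgeR adjusted p = 0.101) or 3 (0.179) or long-term nontarget 1 (0.119), 2 (0.108) or 3 (0.0586). The count of 3 is fragile: it was 9 without the libraries numbered 3, 2 of the 3 among them, beside 11.3% of all genes. It was 6 with DESeq2, beside 6.5% of all genes. With 1 library left out it was as low as 1, without short-term nontarget 1 or long-term nontarget 2 (beside 4.10% and 4.94% of all genes). It was as high as 6, without short-term knockdown 3 or long-term knockdown 3 (beside 9.05% and 8.89%), and 5 without short-term nontarget 3 (5.55%).

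Culture time in knockdown cells shares libraries with both knockdown comparisons. It called 8 members, 30.8% of those tested, beside 26.6% of all genes. ITGAE was higher, beside 11.5% of genes called higher, and ITGA4, ITGA6, ITGA7, ITGAV, ITGB8, LAMA1 and LAMB3 were lower, beside 15.2% called lower. ITGB8 changed by −2.86 ± 0.20 on the log2 scale (edgeR adjusted p = 2.13e-08), LAMA1 by −2.03 ± 0.19 and ITGA6 by −1.32 ± 0.13. Without the libraries numbered 3, 13 members were called, including these 8, beside 31.4% of all genes.

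The interaction asks whether the knockdown effect differs between the 2 times. It called 8 members, 30.8% of those tested, beside 13.4% of all genes: ITGAE higher, beside 4.98%, and ITGA4, ITGA6, ITGAV, ITGB8, LAMA1, LAMB3 and LAMC1 lower, beside 8.43%. Without the libraries numbered 3 it called 11, with ITGA1, LAMA5 and LAMB2 added, beside 16.6% of all genes. A difference of 2-fold or more was called for 4 of the 8, beside 7.45% of all genes. The call of ITGAE (0.75 ± 0.20, edgeR adjusted p = 0.0196) was lost in 4 fits, without short-term nontarget 3 (edgeR adjusted p = 0.0578), short-term knockdown 2 (0.0539), long-term nontarget 2 (0.0555) or long-term knockdown 1 (0.0743). That of LAMB3 (−0.92 ± 0.26, edgeR adjusted p = 0.0272) was lost in 7 fits. The edgeR adjusted p was 0.0510 without short-term nontarget 2, 0.0712 without short-term nontarget 3 and 0.0567 without short-term knockdown 3. It was 0.0550 and 0.0580 without long-term nontarget 2 and 3, and 0.0848 and 0.0665 without long-term knockdown 1 and 2.

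The proteins that work with integrins and laminins were read from 4 lists. Of 41 intracellular adaptors and kinases, 38 were tested. In short-term knockdown libraries 4 were called higher (10.5%, beside 10.3% of all genes). In the long term 7 were higher and 9 lower (42.1%, beside 29.5% of all genes), with a median log2 fold change of −0.16. The count in the short term was 2 without short-term nontarget 1, beside 6.17% of all genes, and 9 without the libraries numbered 3, beside 14.2%. LIMS2, a partner of integrin-linked kinase, averaged 9.91 ± 2.19 and 23.0 ± 1.92 CPM in short-term nontarget and knockdown libraries and 13.7 ± 0.602 and 2.83 ± 0.637 in long-term nontarget and knockdown libraries. It rose by 1.20 ± 0.17 in the short term (edgeR adjusted p = 0.000177) and changed by −2.30 ± 0.21 in the long term (edgeR adjusted p = 2.84e-07). TNS1, the actin-binding tensin, averaged 45.1 ± 4.71 CPM in short-term nontarget and 64.9 ± 10.0 in short-term knockdown libraries (log2 0.52 ± 0.15, edgeR adjusted p = 0.0334). That call was lost without short-term nontarget 1 (edgeR adjusted p = 0.0852), 2 (0.157) or 3 (0.0574) or short-term knockdown 2 (0.0656) or 3 (0.130). In the long term TNS1 averaged 40.1 ± 8.68 CPM in long-term nontarget libraries and 16.1 ± 1.33 in long-term knockdown libraries (log2 −1.31 ± 0.16, edgeR adjusted p = 9.6e-06).

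Of 26 basement membrane partners of laminins, 17 were tested. In short-term knockdown libraries 1 was higher and 3 were lower (23.5%, beside 10.3% of all genes). In the long term 4 were higher and 8 lower (70.6%, beside 29.5%), with a median log2 fold change of −0.69. COL4A1, the collagen IV chain, averaged 1164 ± 258 and 579.9 ± 124 CPM in short-term nontarget and knockdown libraries (log2 −1.01 ± 0.19, edgeR adjusted p = 0.00243) and 1507 ± 305 and 391 ± 60.8 in the long-term ones (−1.95 ± 0.19, edgeR adjusted p = 1.51e-06). NID2, a nidogen that bridges laminin and collagen IV, averaged 651 ± 205 CPM in long-term nontarget libraries and 63.3 ± 8.03 in long-term knockdown libraries (−3.36 ± 0.28, edgeR adjusted p = 3.2e-07). NTN1, a laminin-related guidance protein, was near 0 in both short-term groups (5 and 7 counts) and averaged 12.3 ± 4.30 CPM in long-term nontarget libraries and 1.30 ± 1.101 in long-term knockdown libraries (−3.35 ± 0.45, edgeR adjusted p = 2.76e-05).

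TINAGL1, a matrix protein related to TINAG, changed by −1.72 ± 0.16 (edgeR adjusted p = 3.12e-07) and FREM2, a basement membrane protein of the Fraser complex, by −1.90 ± 0.45 (edgeR adjusted p = 0.00375) in the long term. TINAG, a tubular basement membrane protein, went the other way at the 2 times. It averaged 7.81 ± 0.735 and 2.25 ± 0.921 CPM in short-term nontarget and knockdown libraries, and 1.79 ± 0.643 and 9.16 ± 2.12 in long-term nontarget and knockdown libraries. Its log2 fold changes were −1.74 ± 0.29 (edgeR adjusted p = 0.000824) and 2.38 ± 0.30 (edgeR adjusted p = 9.79e-06).

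Of 16 other laminin receptors and tetraspanins, 14 were tested. In the short term 1 was higher and 2 lower (21.4%, beside 10.3% of all genes), a count of 3 that was 1 without short-term nontarget 1 (beside 6.17%), and in the long term 2 were higher and 5 lower (50%, beside 29.5%). BCAM, a receptor for the laminin alpha5 chain, averaged 28.02 ± 4.91 CPM in long-term nontarget libraries and 12.8 ± 1.94 in long-term knockdown libraries (log2 −1.13 ± 0.17, edgeR adjusted p = 6.14e-05).

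Of 28 other integrin ligands, 19 were tested. Of these, 5 were higher and 2 lower in the short term (36.8%, beside 10.3% of all genes). In the long term 5 were higher and 9 lower (73.7%, beside 29.5%), with a median log2 fold change of −0.50. The count of 7 in the short term was 4 without short-term nontarget 2, beside 6.36% of all genes, and 11 without the libraries numbered 3, beside 14.2%. FN1, fibronectin, read 1368, 1451 and 1950.2 CPM in short-term nontarget, 2707, 2537 and 2251 in short-term knockdown, 1364, 1482 and 2036 in long-term nontarget, and 313, 288 and 251 in long-term knockdown libraries. It was highest in short-term and lowest in long-term knockdown libraries, without overlap with nontarget libraries, as ITGA6 was. FN1 changed by a log2 fold change of 0.65 ± 0.15 in the short term (edgeR adjusted p = 0.011), lost without short-term nontarget 1 (0.0705) or 2 (0.0629) or short-term knockdown 1 (0.0506), and −2.52 ± 0.16 in the long term (edgeR adjusted p = 8.6e-09).

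EDIL3, a secreted ligand of αv integrins, averaged 3.09 ± 1.45 CPM in long-term nontarget libraries and 185 ± 13.3 in long-term knockdown libraries, a log2 fold change of 5.88 ± 0.26 (edgeR adjusted p = 1.48e-10). MFGE8, a secreted ligand of the same family, averaged 138 ± 27.4 and 18.2 ± 4.84 CPM in those groups (−2.94 ± 0.18, edgeR adjusted p = 3.03e-09). NPNT, the ligand of α8β1 in the developing kidney, was higher in both knockdowns (1.05 ± 0.16 and 1.65 ± 0.16, edgeR adjusted p = 0.000329 and 4.38e-07), while its receptor subunit ITGA8 had 0 counts. FBN1, the microfibril protein, changed by −2.98 ± 0.21 (edgeR adjusted p = 5.14e-08) and CCN2, a matricellular protein that binds integrins, by −1.69 ± 0.14 (edgeR adjusted p = 1.09e-07) in the long term. Both were also lower in the short term, by −0.74 ± 0.19 (edgeR adjusted p = 0.0212) and −0.89 ± 0.14 (edgeR adjusted p = 0.000401). That call of FBN1 was lost without short-term nontarget 3 (edgeR adjusted p = 0.112) or short-term knockdown 2 (0.0679).

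Over culture time in nontarget cells, 2 adaptors (5.26%), 6 basement membrane partners (35.3%), 1 other receptor (7.14%) and 1 other ligand (5.26%) were called, beside 7.55% of all genes. Over culture time in knockdown cells, 17 (44.7%), 10 (58.8%), 7 (50%) and 14 (73.7%) were called in the same order, beside 26.6% of all genes. The interaction called 7 (18.4%), 8 (47.1%), 4 (28.6%) and 11 (57.9%), beside 13.4% of all genes.

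The members lie on 15 chromosomes. The 40 tested genes nearest to a member on its chromosome were used to see whether a whole neighbourhood moved. In the long-term comparison the median of these neighbours was 0.48 on the log2 scale around ITGB4, whose own change was 2.17, and 0.42 around ITGAE, whose own change was 0.69. Around ITGB8 and ITGB3 it was 0.19 and 0.20, beside their own changes of −2.91 and −1.23. In the short term the neighbours of ITGA6 and ITGAV, both on chromosome 2, had medians of 0.32 and 0.22, beside changes of 0.68 and 0.37 for the genes themselves. Other genes of chromosome 2 had neighbour medians of 0.26 (ITGB6, itself 0.84), 0.25 (ITGA4, itself −0.84), 0.41 (FN1, itself 0.65), 0.45 (TNS1, itself 0.52) and 0.32 (LIMS2, itself 1.20) in the short term. The part of such neighbourhoods in the changes of ITGB4, ITGAE and these genes of chromosome 2 was not tested.

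By level, 9 members had at least 10 CPM per kilobase of exon in every group: ITGB1, ITGAV, ITGA3, LAMB1, LAMC1, ITGA5, ITGB5, LAMC3 and LAMB2. That number was 10 with the longest transcript and 11 with the longest coding sequence as the length. Per kilobase of exon ITGA2, ITGA7, ITGAX and LAMA2 were below 1 CPM in every group. These 4 tested members were 3 with the longest transcript and 1, LAMA2, with the longest coding sequence.

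The 11 members with too few counts to test were ITGA10 with 10 counts over the 12 libraries, ITGA11 with 1, ITGA2B with 12, ITGA9 with 20, ITGAD with 1, ITGAM with 3, ITGB7 with 2, LAMA4 with 5 and LAMB4 with 13, and ITGA8 and ITGAL with 0. For these 2 a count of 0 allows up to 0.0357 CPM over all libraries, counting error only. They include the platelet subunit ITGA2B, the leukocyte subunits ITGAD, ITGAL, ITGAM and ITGB7, and LAMA4, the alpha chain of vessel walls.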

How the data were processed

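RNA from 12 libraries was prepared by the authors with a TruSeq RNA v2 kit for polyA RNA. Per the labels and the supplementary methods, reads were mapped with STAR to GRCh38 and counted with featureCounts. The strand setting was not given in the sources used here. The deposited counts per gene, in a raw table and in per-library files, differed in 0 values and were the start of every comparison. The deposited normalized columns (unit score) are the authors' counts divided by 1 factor per library (99.9987% of values within 1) and were used for this check alone.

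Of the 58288 gene IDs in the table, GENCODE release 29 (GRCh38) held 55619 in the same version and 2361 in another version, and lacked 308. Coordinates are given for genes of the same version.

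The fits used edgeR 4.0.16 in R 4.3.3. The filter filterByExpr left 13959 genes with 99.8% of the counts. TMM factors, estimateDisp and a robust glmQLFit with 1 term per group over all 12 libraries were used, with a prior count of 0.125 and a biological coefficient of variation of 12.0%. All tests were two-sided, and Benjamini-Hochberg adjustment ran over all genes tested. The steps were tested on simulated data. Totals ran from 5825779 to 8991051 counts. An SE is the log2 fold change divided by the square root of F.

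Members were taken by symbol from the integrin alpha, integrin beta and laminin families, and 1 of the 38 genes so found is not reported here or counted. Genes of the 4 partner lists are named when called with a fold of 2 or more in a knockdown comparison, the 6 largest per list at most (2 of 2 adaptors, 6 of 9 basement membrane partners, 1 of 1 other receptor and 6 of 11 other ligands). CCN2 is listed as CTGF in that release. The members and lists were chosen with earlier results of these data known. Marker lists for proximal tubule, kidney epithelium, fibroblast, endothelium, leukocyte and other nephron segments were read as values. Levels between genes were compared per kilobase of the union of exons.

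Alternatives were DESeq2 1.42.0, RLE factors, no filter, a mean of at least 10 CPM, a replicate block, the per-library files, fits of the compared groups alone, leaving out each library, and leaving out the 4 libraries numbered 3, which was added after seeing the data. Python 3.11.15 with pandas 2.3.3, scipy 1.17.1 and matplotlib 3.10.9 was used for summaries. Promoter windows are from RefSeq, GRCh38.p14.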

Additional observations from a re-analysis of the deposited data

Results flagged for a closer look

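For 20 of the genes named, the effect of the knockdown differed between long-term and short-term cells by the edgeR interaction term, which is what drew attention to them. Of all genes tested, 13.4% were called by that term. The named partners had been chosen for a called change of 2-fold or more in a knockdown comparison. The values are the long-term minus the short-term log2 fold change.

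Among the integrins the difference was −4.32 for ITGA4, −1.46 for ITGA6, 0.75 for ITGAE, −0.62 for ITGAV and −2.97 for ITGB8. Among the laminins it was −1.19 for LAMA1, −0.92 for LAMB3 and −0.60 for LAMC1. The fitted value of ITGA4 rests on 3 counts in long-term knockdown libraries and depends on the prior count.

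Among the adaptors it was −3.50 for LIMS2 and −1.83 for TNS1. Among basement membrane partners it was −2.94 for NID2, −0.94 for COL4A1, 4.12 for TINAG and −1.73 for TINAGL1, and it was −1.52 for the laminin receptor BCAM. Among the other ligands it was −3.17 for FN1, −2.24 for FBN1, −0.80 for CCN2, 4.99 for EDIL3 and −2.72 for MFGE8. The call of COL4A1 was lost in 4 fits, without short-term nontarget 1 (edgeR adjusted p = 0.0550) or 2 (0.0629), long-term nontarget 3 (0.0546) or long-term knockdown 2 (0.0626). Those of ITGAE and LAMB3 were lost in 4 and 7 fits.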

How the results depend on the processing

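Of 42 member calls over the 5 comparisons, 31 held in every fit with 1 library left out, 11 were lost in at least 1, and 0 reversed. A further set of 79 calls adds to these 42 the calls of FLCN and the named partners in the knockdown comparisons and of the named partners by the interaction. Of it, 79 of 79 kept direction and call with RLE factors, without a filter and with the per-library files, 78 of 79 with DESeq2, 78 of 79 without the 4 libraries numbered 3, 58 of 59 in fits of the compared groups alone, and 62 of 62 at a mean of at least 10 CPM.

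Counts of calls moved more. Members called in the short-term knockdown numbered 6 (beside 10.3% of all genes), and 12 without the libraries numbered 3 (14.2%). Over culture time in nontarget cells they numbered 3 (7.55%), and 6 with DESeq2 (6.5%), 7 of 35 tested without a filter (4.81%), 1 of 20 tested at a mean of at least 10 CPM (7.11%), 6 in the fit of the compared groups alone (9.57%) and 9 without the libraries numbered 3 (11.3%). Over culture time in knockdown cells they numbered 8 (26.6%), and 13 without the libraries numbered 3 (31.4%), and by the interaction 8 (13.4%), and 11 without them (16.6%). Short-term calls without those libraries were 9 for adaptors (4 with all) and 11 for other ligands (7 with all). Fewer genes pass the stricter filter by construction, and otherwise the cause was not tested.

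With 1 library left out, counts ranged from 4 to 8 (short-term knockdown), 15 to 17 (long-term knockdown), 1 to 6 (culture time in nontarget cells), 8 to 12 (in knockdown cells) and 6 to 9 (interaction) for the members. The shares of all genes ranged from 6.17 to 11.9%, 23.2 to 31.8%, 4.10 to 9.05%, 19.9 to 27.3% and 10.3 to 16.1% in the same order. In the short and the long term they ranged from 2 to 5 and 12 to 19 for adaptors, 3 to 4 and 10 to 14 for basement membrane partners, 1 to 3 and 6 to 9 for other laminin receptors, and 4 to 8 and 13 to 14 for other ligands.

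The replicate numbers were not taken as paired, because only 10 of 18 correlations between libraries of the same number were above 0.1, the lowest −0.101. Among the 3 groups other than short-term nontarget 9 of 9 were above 0.1 (0.123 to 0.467), and a library correlated best with its own number in 16 of 18 cases. With short-term nontarget 1 of 9 was above 0.1, and 6 of 18 were best with their own number. The labels do not say what a number shares. With a replicate block, 79 of 79 gene calls held, and more of all genes were called: 16.9, 36.8, 12.8, 34.4 and 20.6% in the order of the ranges above, against 10.3, 29.5, 7.55, 26.6 and 13.4% without it. Members called were then 11 in the short-term knockdown (6 without the block; ITGA3, ITGA4, LAMA5, LAMB1 and LAMB2 added), 19 in the long-term knockdown (17 without; ITGA3 and ITGAV added), 8 over culture time in nontarget cells (3 without; ITGA3, ITGB3, LAMA5, LAMB3 and LAMC1 added), 12 over culture time in knockdown cells (8 without; ITGA5, ITGB1, LAMB1 and LAMC1 added) and 10 by the interaction (8 without; LAMA5 and ITGB4 added, ITGB4 with an edgeR adjusted p of 0.00496). Short-term calls were 9 for adaptors and 7 for basement membrane partners (4 without the block).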
